A study of Mus musculus with 7 samples.

Results

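Here 9 genes of the Notch arm of the segmentation clock, chosen by symbol, were followed in tissue from the tail end of the mouse embryo. They are the receptor Notch1, the glycosyltransferase Lfng, the repressors Hes7, Hes1, Hes5, Hey1, Hey2 and Heyl, and the feedback inhibitor Nrarp. All 9 were found among the 25965 genes of the deposited table, and all 9 passed the filter on low values. RNA-seq had been performed on the posterior end of the embryo, cut about 1 somite length behind the youngest somite (Postsomitic mesoderm in the sample labels, presomitic mesoderm in the title). One group was Smchd1 MommeD1/MommeD1, called null in the design text, and the other was Smchd1 +/+. Smchd1 encodes a chromatin protein that takes part in X inactivation and gene silencing. Embryos of both groups were female, FVB/N and at E9.5. The table and the labels hold 4 null and 3 wild-type libraries, although the design text names 3 of each. Whether each library is a separate embryo is not stated, so the p-values reflect only how far these libraries vary, which may be technical. The columns name the genotype but no sample number, so libraries were lettered in file order within each group, null A to D and wild-type A to C.

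The segmentation clock is an oscillation of gene expression in the presomitic mesoderm that times the formation of somites. Notch signalling switches on the Hes and Hey repressors through the DNA-binding protein RBPJ. Hes7 then represses its own gene and Lfng, and the Lfng protein changes how Notch receptors respond to their ligands. Nrarp protein is a target of the pathway that limits it in turn. Tissue from a single embryo can therefore hold these transcripts at different points of a cycle. In a bulk piece of tissue, fewer cells expressing a gene and less RNA per cell cannot be told apart.

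The promoters of the members are shown first because the members are read out through RBPJ and through the boxes bound by Hes and Hey proteins. RefSeq (GRCm38.p6) gave a promoter for 6 of the 9 members, namely Hes7, Lfng, Hes5, Hey2, Nrarp and Notch1. The 250 bases before the annotated start were searched on both strands for the RBPJ core TGGGAA, for the E-box CACGTG and for the N-box CACNAG. The RBPJ core was present in 4 of the 6 member promoters and in 21.6% of all 32851 promoters. The E-box was present in 2 of the 6 (Lfng and Nrarp) and in 6.02% of all promoters. The N-box was present in 4 of the 6 and in 36.7% of all promoters. The following 3 are those of the members with the RBPJ core that differed most between libraries, written 5′ to 3′ on the strand of the gene, with the core in capitals (TTCCCA where it lies on the other strand). For Hes7 the bases inside the deposited gene row were left out.
Hes7, chr11:69120203-69120403, plus strand: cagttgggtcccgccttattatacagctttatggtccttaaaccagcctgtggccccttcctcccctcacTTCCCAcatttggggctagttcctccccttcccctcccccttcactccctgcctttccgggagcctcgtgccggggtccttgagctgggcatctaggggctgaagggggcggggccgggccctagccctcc
Lfng, chr5:140607091-140607340, plus strand: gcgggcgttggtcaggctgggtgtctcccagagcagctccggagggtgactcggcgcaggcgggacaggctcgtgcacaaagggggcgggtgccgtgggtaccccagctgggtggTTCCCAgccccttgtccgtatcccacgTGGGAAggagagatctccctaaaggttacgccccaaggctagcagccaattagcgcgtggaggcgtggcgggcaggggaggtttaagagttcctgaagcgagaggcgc
Hes5, chr4:154960673-154960922, plus strand: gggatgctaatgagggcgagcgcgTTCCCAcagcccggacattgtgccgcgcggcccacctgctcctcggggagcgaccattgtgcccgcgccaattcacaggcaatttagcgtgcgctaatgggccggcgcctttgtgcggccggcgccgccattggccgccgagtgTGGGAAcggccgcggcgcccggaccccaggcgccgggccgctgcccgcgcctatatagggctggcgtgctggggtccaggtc
The Hes7 stretch held 1 core, beginning 180 bases before the start. The Lfng promoter held 2, beginning 135 and 108 bases before the start, and the E-box that begins 112 bases before it overlaps the nearer core. The Hes5 promoter held 2, beginning 226 and 82 bases before the start. These are matches of letters and no measure of binding.

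The libraries held 22137823 to 23847381 reads in listed genes in null tissue and 19622596 to 23548995 in wild-type tissue. RPM is reads scaled to the library's depth, which was 59177338 to 68242680 reads and so exceeded the reads in listed genes. Listed genes held 28.8% of the depth in wild-type C, 31.2% in wild-type B and 34.3% to 37.9% in the other libraries. The unshifted autosomal median (log2 RPM) was also lowest in wild-type C (3.78) and wild-type B (3.86), against 4.05 to 4.19 in the others. The cause was not tested. Values below are log2 RPM, shifted so that the median autosomal gene has the same value in every library (centred log2 RPM). Without this shift the median change of all 13997 tested genes was 0.16, against -0.03 with it. Smchd1 had 1922 to 2372 reads in null and 5572 to 6552 reads in wild-type libraries, and its centred log2 RPM fell by 1.67 in null tissue (limma adjusted p = 9.54e-05, SE 0.07). Of the presomitic mesoderm markers, Tbx6 lay between 5.10 and 5.52 in null and at 5.29 in each of the 3 wild-type libraries, and Msgn1 between 3.24 and 3.85 in null and between 2.71 and 3.35 in wild-type libraries. Markers of endothelium, blood, surface ectoderm and lateral plate were also detected. The sums of the notochord and of the hindgut markers were higher in every null library than in any wild-type library. The 5 notochord markers summed to 31.5 to 40.5 centred RPM in null and 20.2 to 24.5 in wild-type libraries, and the 5 hindgut markers to 82.3 to 94.5 in null and 47.0 to 79.5 in wild-type libraries. At an unadjusted p under 0.05, 3 of the 5 and 4 of the 5 were higher in null tissue, against 1020 of all 13997 genes. After adjustment 0 of them were called by limma. The part of these tissues in the members' values was not tested. Wild-type B stood apart in 4 of the 6 tailbud markers (T, Cyp26a1, Fgf8 and Wnt3a), with 118 reads of Wnt3a against 1102 to 1752 in the other 6 libraries. Nkx1-2 was instead highest in wild-type B. Cdx2 lay near the low end of its range there, at 5.33 within 5.29 to 5.64 (centred log2 RPM). On the deposited scale wild-type B, at 5.14, was the lowest library for Cdx2.

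For none of the 9 members did the difference between null and wild-type tissue pass the test. Adjusted p-values ran from 0.352 to 0.915 in a limma fit over all tested genes, in which 0.0572% of genes were called at 0.05 in either direction. On the deposited scale, where 0.0429% of genes were called, 0 members were called as well. The voom fit of the recovered reads also called none. At an unadjusted p under 0.05, 1 member of 9 (Nrarp) was below the threshold, against 14.0% of all genes. In all 9 members the groups overlapped, whereas 12.7% of all genes did not overlap. Of all genes, 6.51% were higher in every null library and 6.24% lower in every null library. The median change of the members was -0.12, against -0.03 for all genes. On the centred scale 7 members had a change below 0, as did 8045 of all 13997 genes. On the deposited scale 4 members did, as did 1015 of all genes, and the sign differed between the scales for Hey1, Hey2 and Notch1.

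**Figure D1:**
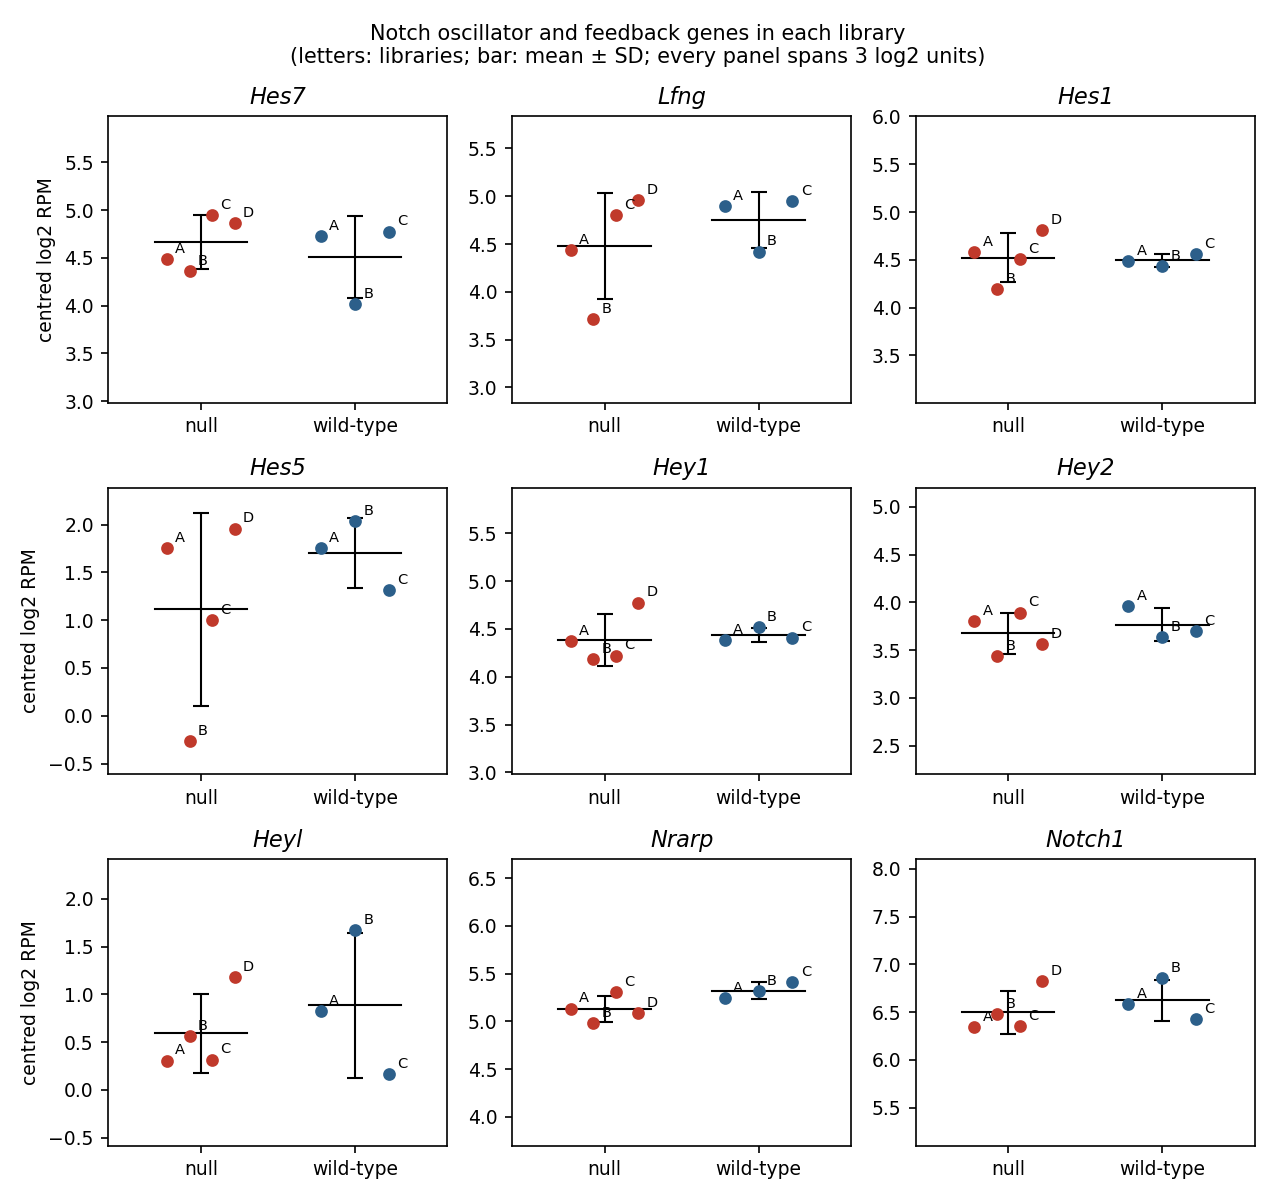
Each panel plots the centred log2 RPM (y axis) of 1 member in the 4 null (red, left) and 3 wild-type (blue, right) libraries, with the mean and SD as bars. The groups overlap in every panel, and Hes5 in null B, at -0.26, is the lowest point of its panel.

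Notch1, the receptor (chromosome 2, 26457903 to 26516663, mm10, minus strand), was the most abundant of the members by reads. Its centred log2 RPM was 6.35, 6.48, 6.35 and 6.83 in null A to D, against 6.59, 6.86 and 6.43 in wild-type A to C. Null D and wild-type B were the highest libraries, so each group held a high one. The change was -0.12 (SE 0.14, 95% interval -0.43 to 0.19, limma adjusted p = 0.63), or 0.917-fold with an interval of 0.74 to 1.14. Without wild-type B the change was -0.01. A row for 0610009E02Rik, annotated on the opposite strand over Notch1, had 622 to 953 reads and up to 14.0% of the Notch1 reads.

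Lfng, the Fringe glycosyltransferase that modifies Notch receptors (chromosome 5, 140607341 to 140615543, plus strand), had a centred log2 RPM of 4.43, 3.72, 4.81 and 4.96 in null libraries. In wild-type libraries it had 4.90, 4.42 and 4.95. Null B was the lowest of all 7 libraries, with 916 reads against 1223 to 2196 in the others. The change was -0.28 (SE 0.28, 95% interval -0.92 to 0.36, limma adjusted p = 0.603). It was -0.02 without null B and -0.44 without wild-type B.

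Hes7, the repressor at the core of the mouse clock (chromosome 11, 69120404 to 69124055, plus strand), had a centred log2 RPM of 4.49, 4.37, 4.95 and 4.86 in null libraries. The wild-type libraries had 4.73, 4.01 and 4.78. Wild-type B was the lowest of the 7, with 924 reads against 1436 to 2053 in the others. The change was 0.16 (SE 0.21, 95% interval -0.32 to 0.64, limma adjusted p = 0.699), and without wild-type B it was -0.09. Hes7 is 1 of 2 members with a change above 0, and its interval allows 0.799-fold to 1.56-fold of the wild-type level.

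Hes1, a Notch target that also oscillates in the presomitic mesoderm (chromosome 16, 30064384 to 30067796, plus strand), had 4.58, 4.19, 4.51 and 4.81 in null libraries, against 4.49, 4.43 and 4.56 in wild-type libraries (centred log2 RPM). The wild-type values lay within the range of the null ones. The change of 0.03 had a 95% interval of -0.27 to 0.32 (limma adjusted p = 0.915). It was -0.0029 without wild-type B and 0.14 without null B.

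Hes5, a Notch target known from neural progenitors and also a cyclic gene in mouse (chromosome 4, 154960923 to 154962371, plus strand), had the widest spread. It had 227, 58, 130 and 275 reads in null A to D, against 231, 235 and 140 reads in wild-type A to C. The centred log2 RPM was 1.76, -0.26, 1.00 and 1.96 in null libraries, against 1.75, 2.04 and 1.31 in wild-type libraries. Null B and null C were the lowest, while null A and D lay among the wild-type values. Null B and null C are also the only libraries that share both the first and the last number in their column names, and the fit treats them as independent. The change was -0.59 (SE 0.50, 95% interval -1.73 to 0.55, limma adjusted p = 0.533), or 0.664-fold with an interval of 0.302 to 1.46, while it was -0.13 without null B and -0.42 without wild-type B. A row for Gm20421, annotated on the opposite strand over Hes5, had 30 to 160 reads and up to 66.4% of the Hes5 reads. The strand setting of the counting is not given in the sources used here, so reads of the pair cannot be told apart. The annotation also places 9130213A22Rik over Hes7 and Gm38287 over Nrarp on the opposite strand, and these were not analysed here.

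The Hey genes encode repressors related to the Hes proteins and are Notch targets in vessels and heart as well as in somites. Hey1 had 4.37, 4.18, 4.22 and 4.78 in null libraries, against 4.38, 4.52 and 4.41 in wild-type libraries (centred log2 RPM). Hey2 had 3.81, 3.44, 3.89 and 3.56 in null libraries, against 3.96, 3.64 and 3.70 in wild-type libraries. Their changes were -0.05 (95% interval -0.36 to 0.26, limma adjusted p = 0.862) and -0.09 (95% interval -0.39 to 0.20, adjusted p = 0.713). For Hey1 the wild-type values lay inside the null range, with null D the highest library. For Hey2 wild-type A was the highest library and null B the lowest. Without wild-type B the changes were -0.0076 for Hey1 and -0.16 for Hey2.

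Heyl was the rarest member, with 83, 103, 81 and 160 reads in null A to D, against 121, 182 and 63 reads in wild-type A to C. Its centred log2 RPM was 0.31, 0.56, 0.32 and 1.18 in null libraries, against 0.82, 1.67 and 0.16 in wild-type libraries. The wild-type group held both the highest library (B) and the lowest (C). The change was -0.29 (SE 0.37, 95% interval -1.15 to 0.56, limma adjusted p = 0.684), and it was 0.10 without wild-type B.

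Nrarp, an ankyrin-repeat protein that binds the Notch transcription complex and lowers its activity (chromosome 2, 25180758 to 25183330, plus strand), was the steadiest member. It had a centred log2 RPM of 5.13, 4.98, 5.30 and 5.09 in null libraries, against 5.24, 5.31 and 5.41 in wild-type libraries. Null C lay inside the wild-type range, and the other 3 null libraries lay below it. The change was -0.20 (SE 0.08, 95% interval -0.38 to -0.01, limma adjusted p = 0.352), or 0.873-fold. Without wild-type B it was -0.20, and on the deposited scale it was -0.0030 (limma adjusted p = 0.989).

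**Figure D2:**
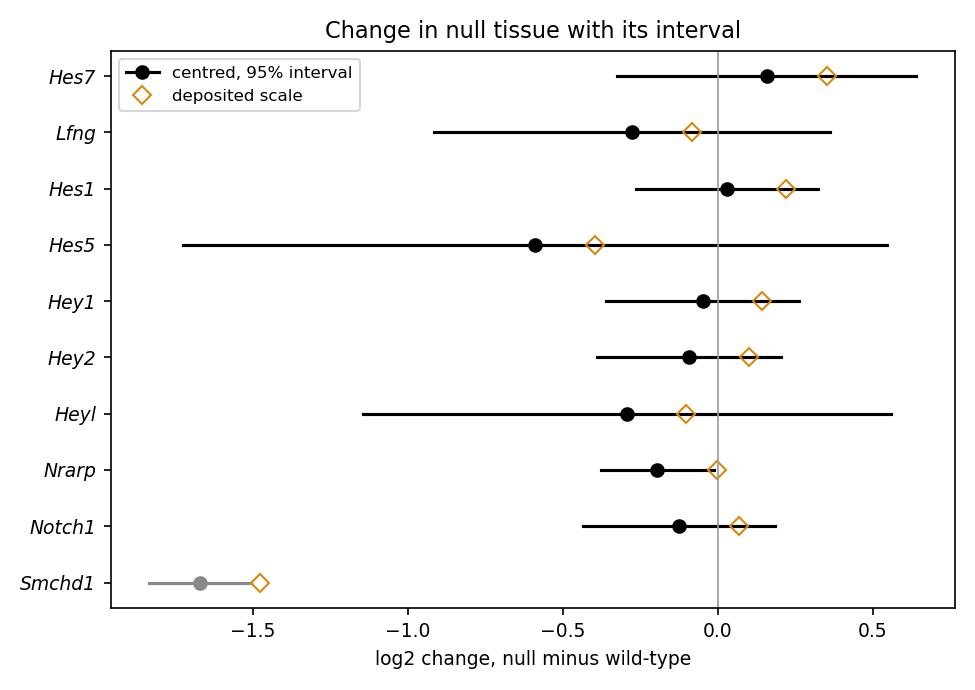
The x axis gives the log2 change, null minus wild-type, of each member and of Smchd1 (rows), with filled points and 95% intervals for centred values and open diamonds for the deposited scale. The intervals of 8 members cover 0, that of Nrarp ends at -0.01, and that of Smchd1 runs from -1.83 to -1.51.

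Per length of annotated exon (GENCODE M21), Nrarp and Hes7 had the highest mean levels over the 7 libraries and Heyl the lowest. In centred RPKM (RPM divided by exon length in kilobases), Nrarp averaged 14.4 ± 1.48, Hes7 13.7 ± 2.88, Hes1 11.3 ± 1.45 and Lfng 10.03 ± 2.67 (SD, n = 7). Notch1 at 6.66 ± 1.02 and Hey1 at 6.56 ± 0.946 followed (SD, n = 7). Hey2 at 2.88 ± 0.370, Hes5 at 2.10 ± 0.856 and Heyl at 0.343 ± 0.145 were the lowest (SD, n = 7). Neighbours in this order overlapped in range in every case except Hey1 and Hey2, where Hey1 was higher in 7 of 7 libraries. Nrarp exceeded Hes7, Hes1 exceeded Lfng and Notch1 exceeded Hey1 in only 4 of 7 libraries each, so these pairs have no order. Hes5 and Heyl overlapped in range, although Hes5 was higher within each of the 7 libraries. Exon lengths ran from 1363 bases for Hes5 to 14232 for Notch1, and the isoforms in use are not known from the table.

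The spread of the members between libraries of one genotype was wide. The within-group SD of all 9 lay above the median of all tested genes, which was 0.12 on the log2 scale. The median SD was 0.22 for the members, against 0.13 for the other Notch pathway genes and 0.21 for clock genes of the Wnt and FGF arms. It was 0.31 for the presomitic mesoderm markers, which include Hes7, and 0.53 for the tailbud markers. A wide spread was thus not particular to the members. Hes5 had an SD of 0.81 (higher than 97.9% of genes), Heyl 0.57 (95.1%), Lfng 0.47 (92.4%) and Hes7 0.35 (86.9%). Notch1 at 0.22, Hey1 at 0.22, Hes1 at 0.20 and Hey2 at 0.20 lay between the 72.4th and the 76.0th percentile, and Nrarp at 0.12 lay at the 50.7th. Low genes vary more, so each SD was also set against the trend of SD with level. Lfng stood at 5.00 times the trend, Hes7 at 3.73, Notch1 at 3.33 and Hes5 at 3.18 times, and Nrarp at 1.44 times. Counting error alone would give an SD of 0.04 for Lfng and Hes7, 0.12 for Hes5 and 0.14 for Heyl, below the spread observed in each. From the lowest to the highest library Hes5 spanned 4.94-fold, Heyl 2.85-fold, Lfng 2.36-fold and Hes7 1.91-fold, against 1.35-fold for Nrarp. On the deposited scale Nrarp lay at the 35.7th percentile, and 8 of 9 members lay above the median. These ranks are a description, and no test was made of them.

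**Figure D3:**
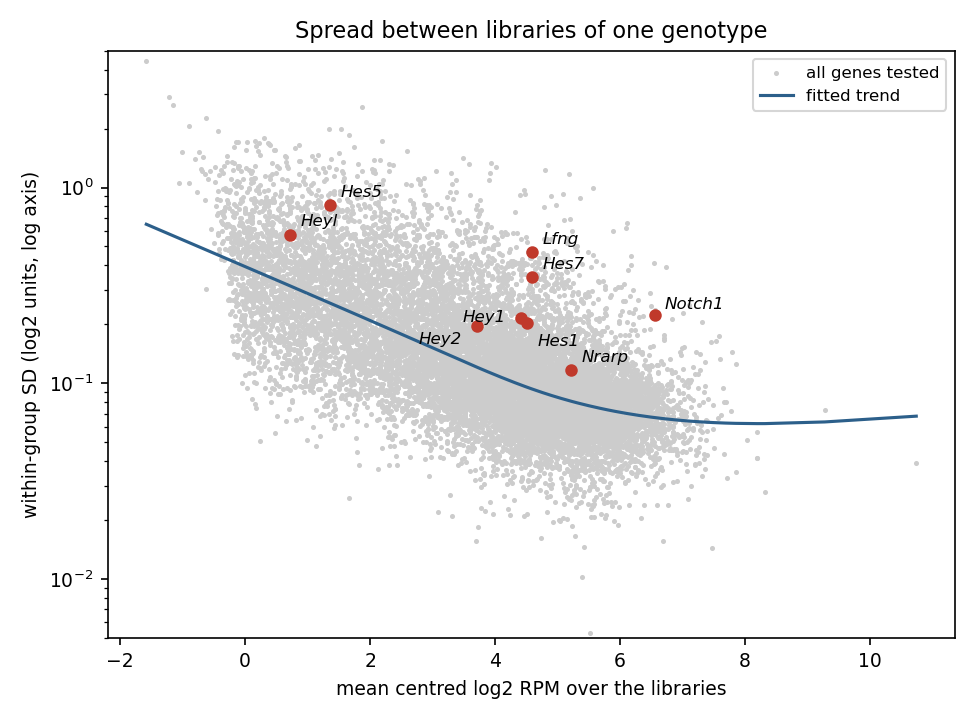
The x axis gives the mean centred log2 RPM over the 7 libraries and the y axis (log scale) the SD within genotype groups, with all tested genes in grey, the fitted trend as a line and the 9 members in red. Lfng, Hes7 and Notch1 lie well above the line at their level, at 5.00, 3.73 and 3.33 times it, and Nrarp lies near it.

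Most pairs of members varied in the same direction from library to library. Of the 36 pairs of members, 28 had a Pearson r above 0 over the 7 libraries on the centred scale, with a median of 0.42. The count was 35 on the deposited scale and 27 with deviations from the group means. The pairs share genes, and the share of positive r among other gene pairs is not given here. The count therefore does not show whether the members differ from other genes in this. Heyl and Notch1 were the closest pair, with r = 0.95 (exact permutation p = 0.00139, 0.05 after Benjamini-Hochberg adjustment over the 36 pairs, which does not pass) and Spearman rho = 0.89 (exact permutation p = 0.0123, adjusted 0.443). Without null D and wild-type B, r was 0.84, and with values taken as deviations from the group means it was 0.95 (permutation p = 0.000992, adjusted 0.0357). The latter p is not exact, because deviations sum to 0 within each group and were shuffled across both groups, so no conclusion is drawn from it. Lfng and Hes1 had r = 0.80 and rho = 0.75 (exact permutation p = 0.0319 and 0.0663, adjusted 0.44 and 0.596). Without null B and wild-type B that r was 0.22 on the centred scale, 0.62 on the deposited scale and 0.59 with deviations from the group means, so how far the relation rests on these libraries depends on the scale. Hes7 and Lfng had r = 0.67 and rho = 0.75 (exact permutation p = 0.102 and 0.0663, adjusted 0.462 and 0.596), and r = 0.77 without the same 2 libraries. No pair passed after adjustment, on the centred or on the deposited scale.

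The genes most like Hes7 were ranked by Pearson r over the 7 libraries among the 12575 genes whose deposited log2 value averaged 1 or more. They were 1110003E01Rik (r = 0.96), Zfp9 (0.95), Npr3 (0.94), Snai1 (0.94) and Cenpc1 (0.94). In all, 22 of the 12575 genes had r above 0.9 with Hes7. Cenpc1 spanned only 4.94 to 5.06 (centred log2 RPM). Snai1, a repressor gene reported to oscillate in mouse presomitic mesoderm, had 1347 to 1731 reads in null and 952 to 1662 in wild-type libraries. Like Hes7, Snai1 was highest in null C and lowest in wild-type B, but it was listed for its r over these same libraries. That likeness follows from the ranking and is no support for a shared clock. For Lfng the closest were Pgf (0.96), Dnaja3 (0.91), Icosl (0.91), Hgsnat (0.91) and Tmem38a (0.91). Among the members, Lfng ranked 895th for Hes7, and Hes1 ranked 32nd for Lfng. With 7 libraries such r values are a description of these libraries.

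Markers of neighbouring tissue differed between libraries alongside several members, and their part in the values was not tested. The 7 determination front and somite markers summed to 15.8 to 54.9 centred RPM in null and 21.9 to 100.1 in wild-type libraries, and none was at 0 in all libraries. Wild-type B, at 100.1, and null D, at 54.9, had the highest sums, and the same libraries were highest for Heyl and Notch1. Most of the sum came from Meox1 and Foxc2, and not every marker followed it. Ripply1 had 110, 24, 105 and 19 reads in null A to D, against 98, 30 and 54 reads in wild-type A to C, so it was lowest in null D, and Ripply2 was highest in null A with 311 reads. Null C, null B and wild-type C had the lowest sums, at 15.8, 17.9 and 21.9, and the lowest Hes5 values came from the same 3 libraries. Mesp2, which marks the front where the next somite forms, had 62, 3, 4 and 184 reads in null A to D, against 127, 124 and 8 reads in wild-type A to C.

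The 6 neural tube markers summed to 21.6 to 61.7 centred RPM in null and 40.4 to 100.9 in wild-type libraries. Sox1, a neural progenitor gene, had a centred log2 RPM of 3.19, 2.33, 0.65 and 3.20 in null libraries, against 3.01, 4.39 and 2.57 in wild-type libraries. Its 3 lowest libraries were those with the least Hes5, as were those of Pax6 and Neurog2. Olig2 was lowest there too, but with 0 reads in null B and null C and 1 in wild-type C, and it did not pass the filter. Sox2 and Sox3 did not have their 3 lowest values in those libraries. Sox2 was lower in wild-type A (3.96) than in null B (4.13), and Sox3 was lower in wild-type A (2.97) than in wild-type C (3.07). The 6 tailbud and neuromesodermal markers summed to 218.2 to 265.6 centred RPM in null and 128.9 to 246.3 in wild-type libraries. Wild-type B was the lowest in that sum, mainly through T, Cyp26a1, Fgf8 and Wnt3a, and it was also the lowest in Hes7. Nkx1-2 was highest in wild-type B, and Cdx2 was low there but not lowest on the centred scale. The 6 endothelial markers, relevant to Hey1, Hey2, Heyl and Notch1, summed to 153.7 to 213.1 centred RPM in null and 108.8 to 189.9 in wild-type libraries, with wild-type B lowest, although it held the most Heyl and Notch1.

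**Figure D4:**
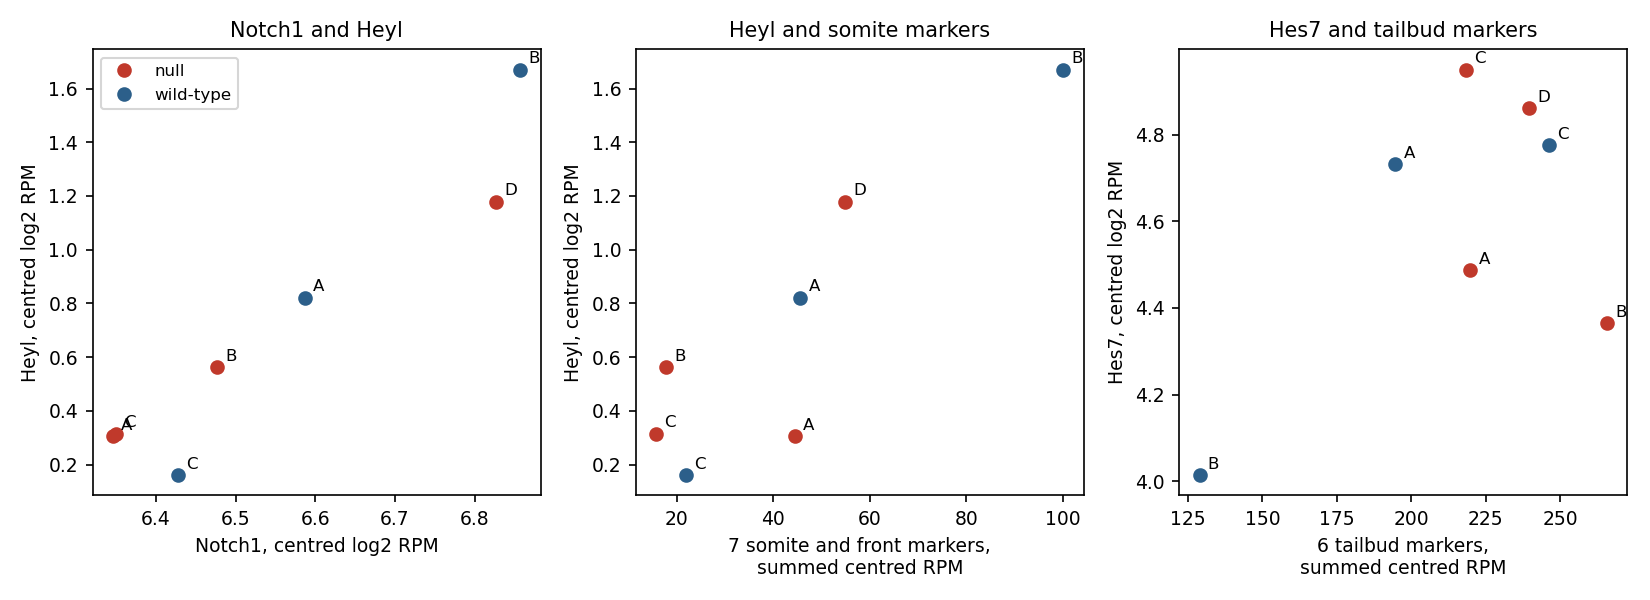
Each point is 1 library, red for null and blue for wild-type, with its letter. The panels plot Heyl against Notch1 (r = 0.95), Heyl against the summed RPM of 7 somite markers, and Hes7 against the summed RPM of 6 tailbud markers, where wild-type B at 128.9 is the lowest on both axes.

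The last number in the column names, 18, 21 or 22, is not explained in the sources used here, and each value occurs in both genotypes. Among libraries with the same number, the null minus wild-type difference of Hes7 was 0.47 at 18, 0.08 at 21 and -0.07 at 22. That of Lfng was 0.01, 0.01 and -0.64. Heyl differed by -1.37 at 18, 1.02 at 21 and -0.38 at 22, and Hes5 by -0.28, 0.65 and -1.39. Nrarp alone among these 5 had differences of one sign, at -0.18, -0.33 and -0.10, but only on the centred scale. On the deposited scale Nrarp was higher in null A (5.13) than in wild-type B (5.12) at 18. It was also higher in null D (5.23) than in wild-type C (5.14) at 21. At 22 null B had 5.04 and null C 5.44, against 5.38 in wild-type A. Each number holds 1 library per genotype (2 null at 22), so these differences have no error of their own. The first number is shared between genotypes only by null D, wild-type B and wild-type C, among which Hes7 differed by 0.47, Lfng by 0.27 and Nrarp by -0.28.

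No other gene of the Notch pathway passed the test. Of 48 further pathway genes 45 passed the filter, and 0 were called in either direction by limma or by voom. At an unadjusted p under 0.05, 4 were higher and 4 lower in null tissue, against 14.0% of all genes in either direction. Dtx1 and Aph1c are among the 4 higher and passed the filter through null libraries alone. Their direction therefore follows in part from the filter, and no conclusion is drawn from the count of higher genes. The median change of the 45 was -0.03, as for all genes. With deposited values 7 were higher and 0 lower, so the even split depends on the scaling. On that scale 1948 of all 13997 genes were higher and 16 lower, so the one-sided split is shared by the whole table. The main ligands of this tissue, Dll1 and Dll3, had changes of -0.20 (95% interval -0.53 to 0.13) and -0.12 (-0.34 to 0.09). Dll1 lay between 6.01 and 6.26 in null libraries and between 6.04 and 6.74 in wild-type libraries (centred log2 RPM), with wild-type B the highest, and without that library its change was -0.0039. The RBPJ gene, Rbpj, had a change of -0.03 (95% interval -0.21 to 0.16).

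The largest change in the pathway list was that of Dtx1, a Deltex ubiquitin ligase that acts on Notch. It had 56, 96, 71 and 121 reads in null A to D, against 20, 21 and 32 reads in wild-type A to C, so the null libraries were all higher. Its centred change was 1.62 (SE 0.35, 95% interval 0.82 to 2.42, limma adjusted p = 0.212). Dtx1 passed the filter through null libraries alone. Aph1c, a subunit gene of the gamma-secretase that cleaves Notch, had 75 to 94 reads in null and 32 to 54 reads in wild-type libraries (change 0.75, limma adjusted p = 0.352), and it too passed the filter through null libraries alone. Its close copy Aph1b did not pass the filter, with 46 to 80 reads in null and 24 to 43 in wild-type libraries, and how reads were split between the copies is not known.

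The next genes by p had changes below 0. They were the receptor Notch2 (-0.26), the co-repressor Tle4 (-0.21), the Deltex gene Dtx2 (-0.16) and Fbxw7 (-0.22), which encodes a ubiquitin ligase subunit that marks active Notch for destruction (limma adjusted p = 0.352 for each). On the deposited scale these were -0.07, -0.02, 0.03 and -0.03. Dtx2 was lower in every null library on the centred scale.

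**Figure D5:**
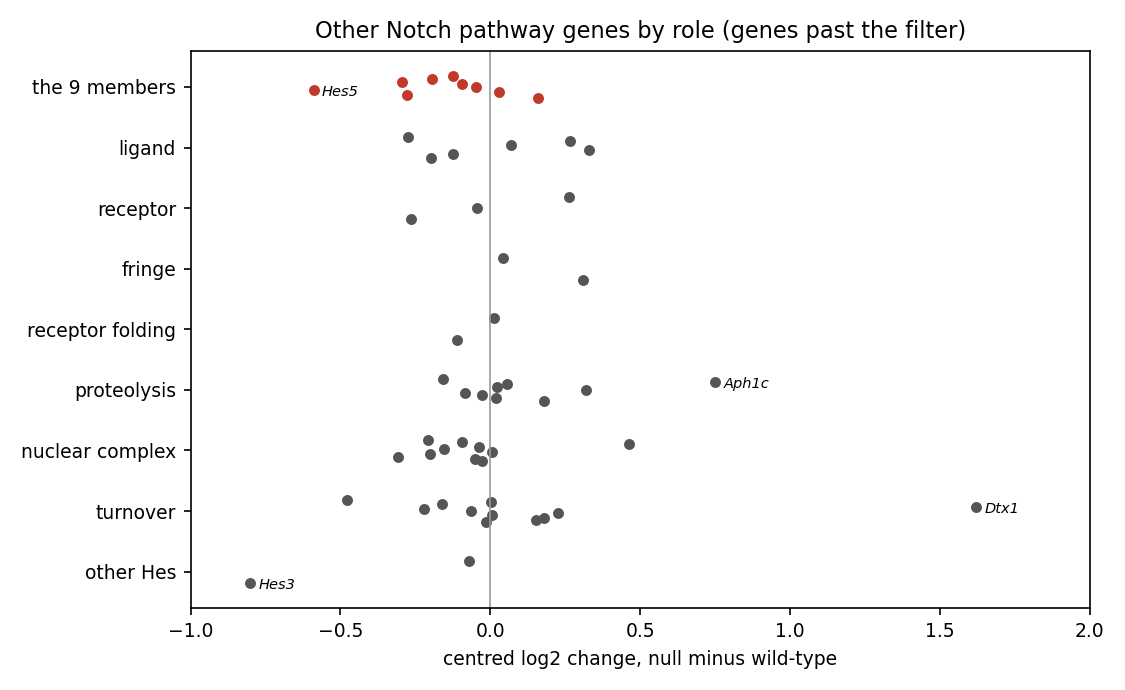
The x axis gives the centred log2 change, null minus wild-type, and each row is a role, with the 9 members in red and 45 other pathway genes in grey. Most points lie near 0, and Dtx1 at 1.62 and Aph1c at 0.75 are the farthest to the right. Both passed the filter through null libraries alone.

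No clock gene of the Wnt and FGF arms passed the test either. All 16 were tested, 0 were called by limma or by voom, and at an unadjusted p under 0.05 0 were higher and 2 lower, against 14.0% of all genes in either direction. With deposited values 4 were higher and 0 lower, where 1948 of all 13997 genes were higher and 16 lower. The 2 lower on the centred scale were the Wnt feedback gene Nkd1 (change -0.20, SE 0.05, limma adjusted p = 0.302) and Tnfrsf19, a TNF receptor family gene (-0.18, SE 0.07, adjusted p = 0.352). Myc followed with -0.49 (SE 0.24, adjusted p = 0.361). These 3 are the only ones of the 16 that were lower in every null library on the centred scale, where 6.24% of all genes were. With deposited values 0 of the 16 were, against 0.0572% of all genes, and the changes of the 3 were -0.01, 0.02 and -0.30. The Wnt feedback gene Axin2 had a change of 0.02 (95% interval -0.28 to 0.32) and the FGF feedback phosphatase gene Dusp6 -0.01 (-0.15 to 0.13).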

How the data were processed

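RNA-seq libraries of 4 null and 3 wild-type tissue samples were compared. The submitters' processing notes name mm10, TopHat2 (2.0.12), bcl2fastq and edgeR, and neither the counting tool nor its strand setting nor the annotation is given in the sources used here. The authors deposited log2 RPM values. Every value checked under 1000 reads was a whole number of reads to within 0.01, and genes without a read stood at 0.9 read. A gene was kept if its log2 value exceeded 0 in 3 or more libraries (13997 genes). Values were centred on each library's autosomal median, as the deposited scale was known to carry a library shift. They were fitted for genotype with limma 3.58.1 in R 4.3.3 (trended prior, Benjamini-Hochberg over all kept genes, threshold 0.05). The fit was also checked on simulated data in which each gene's SD was that of the trend. The members lay at 1.44 to 5.00 times the trend, so that check does not show how well their changes would be found. Libraries of one group differed beyond sampling noise (chi-square per degree of freedom 9.03 to 22.3), and depth leaves counting error on every value. Intervals are at 95%. Exon lengths came from GENCODE M21, where 99.6% of shared gene names overlapped in position.

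Correlations were tested by two-sided permutation over all orders of the libraries in Python 3.11.15. This is exact for the values themselves but not for deviations from the group means. The members and lists were chosen with earlier results of these data known. Named genes were all members, Smchd1, the 6 pathway and 3 Wnt and FGF genes with the smallest p, Dll1, Dll3, Rbpj, Axin2 and Dusp6, the 5 genes most like Hes7 and like Lfng, and markers set beside a member. Aph1b, Hes3 and Dll4 were named after their values were seen. Other scalings, filters, priors, weights, a block and leaving out each library were tried. After seeing the data, voom on recovered reads, the first column number as a term and leaving out both libraries numbered 18 were added. The planned edgeR and DESeq2 tests of recovered reads were not run, because the deposited unit is log2.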

Additional observations from a re-analysis of the deposited data

How the results depend on the processing

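No member was called in any of the 27 other fits, and the lowest adjusted p of a member was 0.0816 (Hes7 without wild-type A on the deposited scale, limma). Over the whole table, 8 genes were called, against 19 with cyclic loess, 16 with quantile normalization and 13 with array weights. Leaving out 1 library gave 4 to 10 on the centred scale, with 4 without null B, wild-type A or wild-type C and 5 without null D. On the deposited scale it gave 2 without wild-type C, 3 without null B, 5 without null D, 150 without wild-type B, 157 without null A and 4205 without wild-type A. There the other pathway genes called were 0 to 18, with 1 without null A, 1 without wild-type B and 18 without wild-type A, and the Wnt and FGF genes 0 to 3, with 3 without wild-type A. The calls gained were Dtx1 without null A, wild-type A or wild-type B, and Aph1c without wild-type A, among the named genes, both kept through null libraries alone. With deviations from the group means, 1 member pair passed, by a permutation p that is not exact for such deviations. The cause of these shifts was not tested.

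On the deposited scale the change was 0.14 for Hey1, 0.10 for Hey2, 0.068 for Notch1, 0.031 for Dtx2, 0.068 for Dll3, 0.16 for Rbpj, 0.016 for Tnfrsf19 and 0.18 for Dusp6, each of the opposite sign to its centred value. With array weights Hes7 was -0.061 and Hes1 -0.12. Without both libraries numbered 18, Hes7 was -0.029, Hes1 -0.022, Heyl 0.19, Notch1 0.043, Dll1 0.045, Dll3 0.014 and Dusp6 0.025. With the first number as a term Hey1 was 0.081, Axin2 -0.078 and Dusp6 0.030. Dusp6 was also 0.053 with cyclic loess, 0.049 with quantile normalization and 0.0022 under the stricter filter.

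Leaving out 1 library, over both scales, gave ranges of -0.088 to 0.59 for Hes7, -0.44 to 0.18 for Lfng, -0.068 to 0.34 for Hes1, -0.87 to 0.072 for Hes5, -0.18 to 0.24 for Hey1, -0.17 to 0.32 for Hey2, -0.66 to 0.25 for Heyl, -0.25 to 0.082 for Nrarp and -0.23 to 0.18 for Notch1. Among other genes the ranges were -0.38 to 0.12 for Notch2, -0.29 to 0.11 for Tle4, -0.20 to 0.12 for Dtx2, -0.31 to 0.14 for Fbxw7, -0.35 to 0.15 for Dll1, -0.19 to 0.16 for Dll3, -0.059 to 0.32 for Rbpj, -0.23 to 0.093 for Nkd1, -0.23 to 0.12 for Tnfrsf19, -0.097 to 0.41 for Axin2 and -0.062 to 0.26 for Dusp6.

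No paired analysis was possible because the columns carry none of the labels' replicate numbers. A block on the last number in the column names, whose libraries did not all deviate together (correlations of deviations -0.05 to 0.41), left 8 genes and 0 members called and gave -0.027 for Axin2. The planned edgeR and DESeq2 alternatives were not run. Heyl and Hes5, with 63 to 182 and 58 to 275 reads, are limited most by depth.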

Other observations

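Hes3, a Hes gene of neural progenitors that is no clock member here, was low in a single library. It had 947, 845, 203 and 1122 reads in null A to D, against 881, 1484 and 787 reads in wild-type A to C. Null C was the lowest, as it was for Sox1, with 102 reads against 334 to 1199 in the others. Dll4, the Notch ligand of arterial endothelium, was lowest in wild-type B, with a centred log2 RPM of 2.26 against 3.14 to 3.35 in the other 6 libraries. The endothelial markers were also lowest in wild-type B.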
